A study of Mus musculus with 12 samples.

Results

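The 24 h response to CIT was measured in cells that carried the guide against Nop16, by setting 3 stimulated libraries (sgNop16 CIT) against 3 unstimulated ones (sgNop16 nostim). All genes that passed a filter on low counts entered, 16794 of the 56941 in the table. The cells were CH12F3-2A, a mouse B lymphoma line that makes IgM and, once stimulated in culture, switches to IgA. All 12 libraries of the study come from cells transfected with pX459, a plasmid that carries Cas9, with either the Nop16 guide, sgNop16, or sgCtr, a guide with no target, and kept in puromycin for 72 h. The stimulated groups then had CIT for 24 h, which is anti-CD40L (1 μg/ml), IL-4 (mouse, 20 ng/ml) and TGF-β (human, 1 ng/ml). The 6 sgCtr libraries, 3 with and 3 without CIT, share 1 model with the sgNop16 libraries, which sets the filter, scaling and spread behind every call. Their gene levels are given only where the responses with the 2 guides are compared. The cells were a transfected and selected population, no clone is named and 1 guide stood for Nop16. Nothing in the labels says that the replicates came from separate transfections, so p-values measure the spread between these libraries.

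B cells switch the class of their antibody when transcribed switch regions of the heavy chain locus are broken and the breaks are joined. CD40 acts through TRAF adaptors and both NF-κB routes, IL-4 through JAK kinases and STAT6, and TGF-β through its receptor kinases, SMAD proteins and RUNX factors, which together start transcription of the α switch region. Each route also induces its own inhibitors. NOP16 is a nucleolar protein of large ribosomal subunit assembly.

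The sgNop16 libraries held 38866418 to 48615177 counts each, the 10 most abundant genes took 4.45 to 4.89% of the counts in the 12 libraries, and the first principal component of the 6 sgNop16 libraries held 82.8% of their variance and separated stimulated from unstimulated cells. All 10 B cell markers were detected in both groups, at a summed level of 6506 to 6572 CPM without CIT and 8711 to 8777 CPM with it. The rise of the sum was that of Cd74, from a mean of 2570.4 to 4876.4 CPM. By the rule for calls given below, 3 of the 10 were higher and 6 lower. Summed T cell markers were at 219 to 227 and 198 to 204 CPM, nearly all of it Lck. Of the 14, 8 and 4 were at 0, with Bcl11b, Cd8a, Trbc1 and Trbc2 at 0 in both groups. Macrophage markers were at 9.54 to 10.9 and 16.1 to 18.3 CPM, with 7 of 12 at 0 in both groups, Lyz2, Cd14 and C1qa among them, and the part that moved was Csf1r (1.46 ± 0.541 to 7.75 ± 1.27 CPM). NK cell markers were at 10.8 to 13.0 and 6.56 to 8.64 CPM, fibroblast markers at 1.41 to 2.15 and 3.37 to 5.66, erythroid markers at 2.75 to 3.83 and 5.51 to 8.12, and epithelial markers at 0.191 to 0.634 and 0.383 to 0.617. Nop16 itself stood at 85.9, 82.4 and 88.6 CPM without CIT and 64.7, 66.3 and 66.2 CPM with it, a log2 change of -0.38 ± 0.04 (SE). Nop16 mRNA thus remained in both groups, and how many cells were edited cannot be read from it. In these bulk libraries, fewer cells of a state and less RNA per cell cannot be told apart.

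A gene is called where its Benjamini-Hochberg adjusted p over all 16794 genes fell under 0.05 by the quasi-likelihood test of edgeR. CIT changed 6343 genes by this rule, 37.8% of those tested, of which 3239 (19.3%) were higher and 3104 (18.5%) lower. Most changes were small: 65.4% of the called genes differed by less than 1.5-fold, and the median size was 0.39 on the log2 scale. Large changes were mostly rises, with 895 genes higher (5.33%) and 361 lower (2.15%) by at least 2-fold, and 143 higher and 33 lower by at least 16-fold. The libraries of the groups did not overlap for 47% of genes (24.3% higher and 22.7% lower). The median over all genes tested was 0.01. Levels are CPM, counts scaled to the size of each library, and differences are log2 changes with CIT ± SE. Each SE is the size of the log2 change divided by the square root of the quasi-likelihood F, and so is approximate. Of the genes called, 158 rises and 45 falls had 1 group with no more than 12 counts over its 3 libraries. A fold against such a group is a lower bound, set against 12 counts, and allows for counting error alone.

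**Figure D1:**
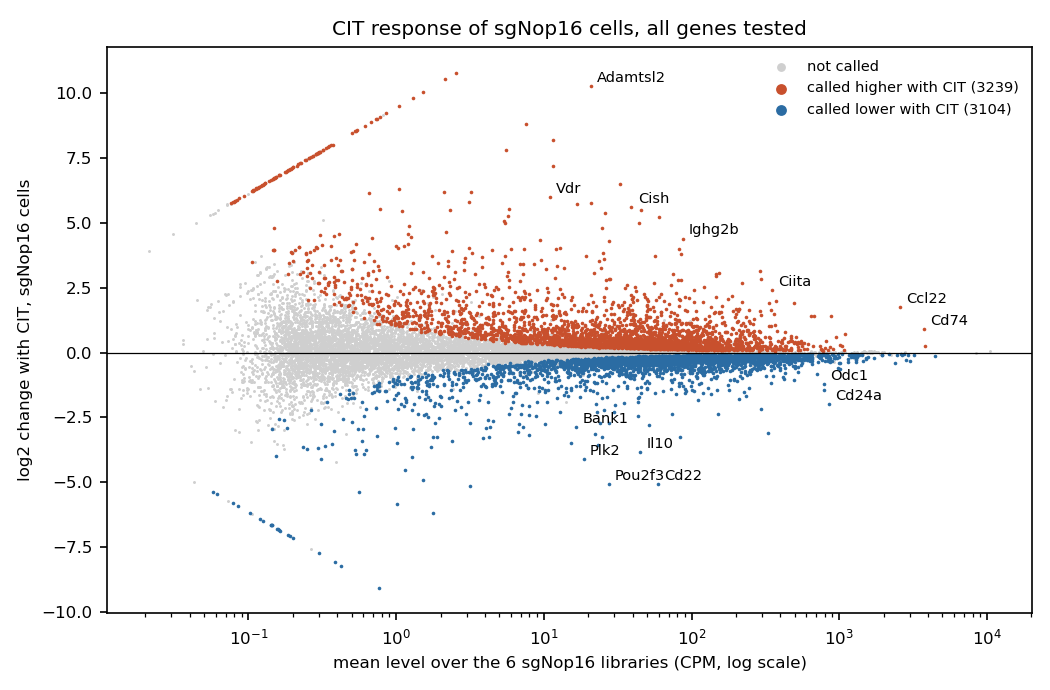
Each point is 1 of 16794 genes, with its mean level over the 6 sgNop16 libraries in CPM (x axis, log scale) and its log2 change with CIT (y axis). Red points were called higher (3239) and blue points lower (3104), and of the genes labelled Adamtsl2 is the highest and Cd22 and Pou2f3 are the lowest. The straight lines of points on the left are genes with no counts in 1 of the groups.

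The promoters of 5 genes that the results below turn on are printed here, to show the DNA words searched in their place. The genes were chosen after their values were seen. Each is 300 bases of reference sequence, from 250 before to 50 after the start of transcription, taken from RefSeq on GRCm38.p6 and written 5′ to 3′ on the gene's strand. Capitals mark the words searched on both strands: TTCNNNGAA, the core that STAT proteins bind, the same word with a gap of 4 bases, CAGACA of SMAD complexes, CACGTG of MYC and related factors, and CCAAT or its reverse ATTGG, which NF-Y binds. Cish, an inhibitor of cytokine signalling, lies at chr9:107296409-107296708 on the plus strand and has 2 STAT words side by side near its start. H2-Eb1 (chr17:34305617-34305916, plus), H2-Aa (chr17:34287774-34288073, minus) and H2-DMb2 (chr17:34144999-34145298, plus) encode MHC class II chains. Wdr43 (chr17:71615965-71616264, plus) encodes a factor of the small subunit processome.
Cish: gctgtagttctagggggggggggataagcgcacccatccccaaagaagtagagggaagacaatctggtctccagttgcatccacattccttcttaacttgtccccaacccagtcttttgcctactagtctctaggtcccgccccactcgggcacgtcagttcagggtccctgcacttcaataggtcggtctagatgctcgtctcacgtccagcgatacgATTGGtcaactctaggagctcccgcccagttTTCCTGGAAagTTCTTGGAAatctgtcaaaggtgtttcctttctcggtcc
H2-Eb1: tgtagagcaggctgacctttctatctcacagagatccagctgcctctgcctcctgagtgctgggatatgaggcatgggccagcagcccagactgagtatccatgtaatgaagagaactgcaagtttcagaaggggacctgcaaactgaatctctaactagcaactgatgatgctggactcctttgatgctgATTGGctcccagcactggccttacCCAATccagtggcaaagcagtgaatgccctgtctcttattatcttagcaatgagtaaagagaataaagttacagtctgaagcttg
H2-Aa: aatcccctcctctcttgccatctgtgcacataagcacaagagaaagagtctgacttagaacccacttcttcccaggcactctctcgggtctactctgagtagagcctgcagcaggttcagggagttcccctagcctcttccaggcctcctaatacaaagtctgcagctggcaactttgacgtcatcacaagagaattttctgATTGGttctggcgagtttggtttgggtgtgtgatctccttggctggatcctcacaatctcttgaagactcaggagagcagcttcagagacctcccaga
H2-DMb2: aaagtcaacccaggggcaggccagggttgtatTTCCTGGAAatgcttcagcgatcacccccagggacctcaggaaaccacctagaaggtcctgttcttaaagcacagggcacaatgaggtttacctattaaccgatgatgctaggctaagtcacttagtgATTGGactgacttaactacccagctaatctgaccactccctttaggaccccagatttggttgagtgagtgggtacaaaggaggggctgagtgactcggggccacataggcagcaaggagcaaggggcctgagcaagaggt
Wdr43: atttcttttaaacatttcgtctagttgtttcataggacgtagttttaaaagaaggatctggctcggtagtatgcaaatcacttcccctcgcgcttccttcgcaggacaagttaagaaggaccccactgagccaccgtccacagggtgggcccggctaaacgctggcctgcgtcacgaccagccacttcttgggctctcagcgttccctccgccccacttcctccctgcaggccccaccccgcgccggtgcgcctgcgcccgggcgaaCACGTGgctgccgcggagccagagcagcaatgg

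The promoter table held windows for 10293 of the tested genes, 13066 in all. TTCNNNGAA was in 6.98% of all windows, 8.18% of those of genes called at least 2-fold higher and 6.65% of those called at least 2-fold lower. The form with a gap of 4 bases, which STAT6 prefers, was in 5.43%, 5.54% and 5.74%. CAGACA was in 16.4%, 20.6% and 17.2%. CCAAT, added to the search after the values were seen, was in 37.7% of all windows. It was in 32.3% of those of genes called at least 2-fold higher and 36.3% of those called at least 2-fold lower. For MHC class II chain genes it was in 8 of the 9 windows (88.9%), against 63.6% for the whole MHC class II list. The share was 53.7% for processome genes, 50% for box C/D and H/ACA particle genes and 20.8% for large subunit assembly. CACGTG was in 9.65% of all windows, 31.7% of the 41 windows of processome genes, 18.9% of the 53 of large subunit assembly genes and 21.4% of the 28 of nucleotide synthesis genes, but in 8% of the 25 of RNA polymerase I genes, none of the 16 of box C/D and H/ACA particle genes and 8.16% of those of genes called at least 2-fold lower. With no minimum fold, CACGTG was in 12.4% of the windows of genes called lower and 8.91% of those called higher. These are matches of letters, not measured binding.

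Among 15 tested genes of uracil and mismatch repair 2 rose, Apex2 (0.64) and Msh6 (0.16), and 5 fell, with Mbd4 at -0.57 and Ung, a uracil glycosylase, at 79.7, 83.8 and 86.4 CPM without CIT and 64.2, 67.0 and 68.7 CPM with it (-0.32 ± 0.05).

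The constant genes of the heavy chain locus rose, with 7 of 8 higher and a list median of 2.46. Ighg2b, the γ2b gene, stood at 8.22, 7.15 and 8.17 CPM without CIT and 166, 175 and 158 CPM with it (4.40 ± 0.09). Ighg3 stood at 5.602, 5.45 and 6.83 CPM without CIT and 24.8, 22.1 and 26.7 CPM with it (2.04 ± 0.12). Ighg1 was at 0 in 2 of the unstimulated libraries and at 14.0, 15.6 and 15.7 CPM with CIT, at least 165-fold higher, and Ighe was at 2.53, 2.14 and 1.55 CPM with CIT, at least 22.7-fold higher. The stimulated libraries of these γ and ε genes did not overlap the unstimulated ones, and Ighe stayed low. Igha, the α gene that TGF-β directs switching to, was already at 882, 857 and 882 CPM and stood at 942, 961 and 946 CPM with CIT (0.12 ± 0.02). Ighm, the μ gene, stood at 2182, 2201 and 2229 CPM without CIT and 2080.1, 2159 and 2147 CPM with it (-0.05 ± 0.02, adjusted p = 0.0482). For Ighm the call ended without unstimulated sgNop16 library 3 or stimulated sgNop16 library 1, with an adjusted p of up to 0.2, and under 6 other settings. Counts do not separate germline from switched transcripts, and reads of the similar γ genes may have been divided unevenly. Of the 7 tested light chain and J chain genes 2 rose, Igkc (0.19) and Iglc3 (0.29; the call ended without unstimulated sgNop16 library 1, unstimulated sgNop16 library 3, stimulated sgNop16 library 1 or stimulated sgNop16 library 3, with an adjusted p of up to 0.136), and 3 fell, Iglc1 (-1.35), Iglc2 (-0.53) and Jchain (-0.74), the joining chain of secreted IgM and IgA.

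For the joining step, of 14 end joining genes 5 fell and 1, Prkdc, rose (0.18; the call ended without unstimulated sgNop16 library 1 or stimulated sgNop16 library 3, with an adjusted p of up to 0.0777). The fall of Lig4, the ligase of classical end joining, was the largest: 10.1, 8.85 and 10.3 CPM without CIT and 1.40, 2.16 and 2.15 CPM with it (-2.35 ± 0.18, adjusted p = 1.95e-10). Every unstimulated library was severalfold above every stimulated one. Xrcc5, which encodes Ku80, was at -0.48, and Dclre1c, the Artemis nuclease, at -0.60. In the break response list 2 of 15 rose (1 without any 1 library but stimulated library 3) and 4 fell, with Usp28 at -0.61 and Rif1, which protects broken ends from resection, at -0.24, while Trp53bp1 (0.02, adjusted p = 0.767) and Atm (-0.03, adjusted p = 0.803) did not pass the test.

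**Figure D2:**
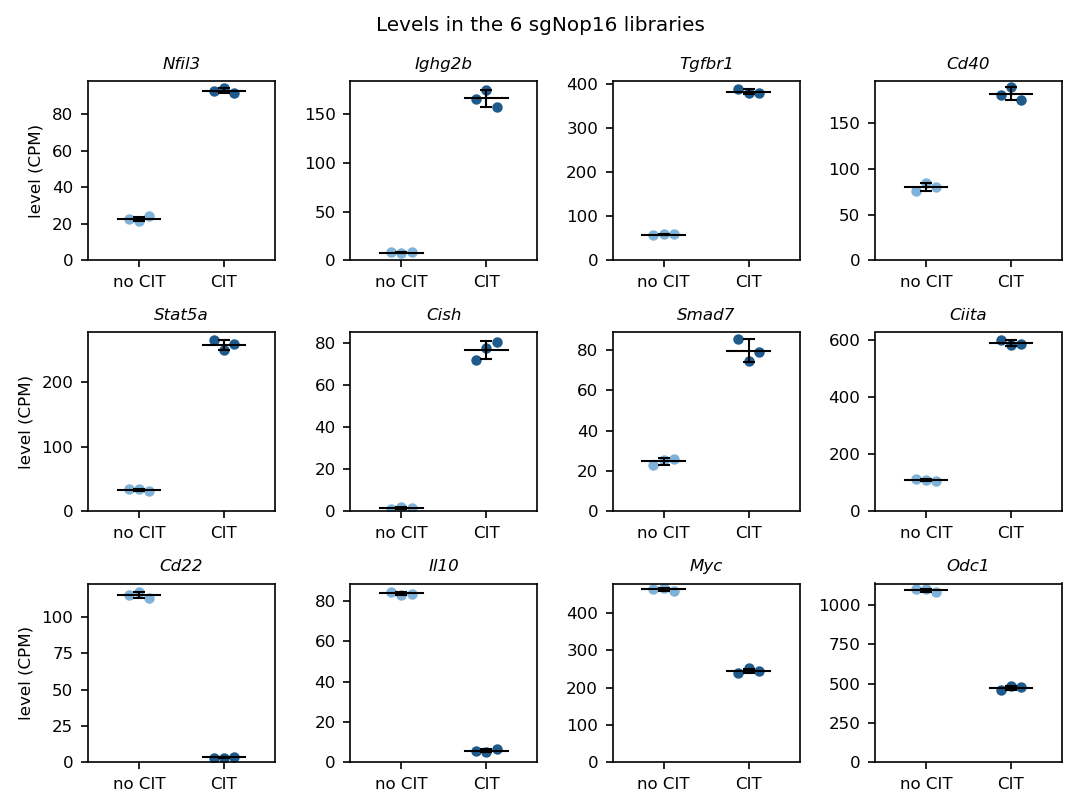
Levels in CPM (y axes, each from 0) of 12 genes in the 6 sgNop16 libraries, as points, with the mean (bar) and SD over 3 libraries. In every panel the stimulated and unstimulated libraries are apart: Nfil3, Ighg2b, Tgfbr1, Cd40, Stat5a, Cish, Smad7 and Ciita are higher and Cd22, Il10, Myc and Odc1 lower with CIT.

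Genes of the TGF-β receptor and of CD40 rose. The list of stimulus receptors also held Il4ra, Il2rg, Il13ra1, Tgfbr3, Eng, Acvr1 and Bmpr2. Of its 7 tested genes 5 were higher and 1 lower. Tgfbr1, the signalling receptor of TGF-β, went furthest: 56.8, 59.3 and 60.5 CPM without CIT and 390.0, 381 and 379.7 CPM with it, a 6.52-fold rise (2.70 ± 0.04). Its partner Tgfbr2 was at 0.77. Cd40 stood at 76.0, 84.4 and 80.0 CPM without CIT and 181, 189.8 and 176 CPM with it (1.19 ± 0.04). These 3 receptors showed no overlap between groups. The IL-4 receptor chains moved little: Il4ra stood at 54.8, 50.6 and 54.8 CPM without CIT and 67.3, 55.2 and 61.2 CPM with it (0.20 ± 0.06, adjusted p = 0.0178; the call ended without unstimulated sgNop16 library 2 or stimulated sgNop16 library 1, with an adjusted p of up to 0.182) and Il2rg, the common γ chain, fell (-0.33).

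Within the JAK and STAT list, which also held Irs1 and Irs2, 8 of 11 tested genes rose and 2 fell, with a list median of 0.56. Stat5a was highest: 33.9, 34.2 and 32.0 CPM without CIT and 265, 249 and 259 CPM with it (2.95 ± 0.05). Stat5b was at 1.78, Jak2 at 2.16 and Stat3 at 1.11, each at least 2-fold higher. Stat6, the factor that IL-4 activates, did not pass the test: 132, 133 and 132 CPM without CIT and 129.7, 126 and 122 CPM with it (-0.08 ± 0.04, adjusted p = 0.112). Stat4 (-0.38) and Tyk2 (-0.29) fell.

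Feedback inhibitors of cytokine signalling rose beside them. Cish, whose promoter is printed above, stood at 1.07, 1.91 and 1.69 CPM without CIT and 72.1, 77.9 and 80.4 CPM with it, a 49.3-fold rise (5.63 ± 0.18). No unstimulated library reached 2 CPM. Socs3 was at 2.36 and Socs1 at 1.51, while Socs2 did not pass the test (0.07, adjusted p = 0.377). Of the 8 genes of the CISH and SOCS list 6 rose (4 or 5 with 1 sgNop16 library left out). In the same list 1, Socs5, fell (-0.36; the call ended without unstimulated sgNop16 library 3 or stimulated sgNop16 library 1, with an adjusted p of up to 0.0795).

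In the TGF-β route inhibitors were higher and 1 transducer lower. Of 15 tested SMAD pathway genes 6 rose, and all 6 encode proteins known to restrain the pathway: Smad6 (2.55), Skil (2.12), Smad7 (1.68), Ski (1.61), Smurf1 (1.39) and Smurf2 (0.35). Smad7, which binds the activated receptor, stood at 22.9, 25.7 and 26.2 CPM without CIT and 85.6, 74.4 and 79.0 CPM with it. Smad3, which carries the signal to the nucleus, was the 1 gene that fell: 15.6, 18.3 and 15.6 CPM without CIT and 8.04, 7.08 and 8.33 CPM with it (-1.08 ± 0.11). Smad2 (-0.12, adjusted p = 0.121, between 0.0308 and 0.468 over the alternatives and lowest without stimulated library 2) and Smad4 (-0.08, adjusted p = 0.323) did not pass the test. The list's median was 0.13. Of the RUNX genes, Runx3 stood at 189, 189 and 181 CPM without CIT and 305, 299 and 295 CPM with it (0.68 ± 0.03) and Runx2 was at 0.38, while Runx1 fell (-0.78), as did the genes of their partner Cbfb (-0.12; the call ended without stimulated sgNop16 library 2, with an adjusted p of up to 0.0687) and of Cbfa2t3 (-0.24). Id2, an inhibitor of E proteins, stood at 4.57, 4.78 and 4.69 CPM without CIT and 39.0, 40.4 and 37.4 CPM with it (3.06 ± 0.09).

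On the CD40 side 8 of 12 genes of TRAF adaptors and partners rose and none fell, the lowest at -0.10. Map3k14, the kinase NIK of the noncanonical NF-κB route, was at 1.57 and Traf1 at 1.16. Of 17 genes of NF-κB subunits and inhibitors 9 rose and 1, Nfkbid, fell (-0.35). The rises were led by genes of the IκB family, Bcl3 (1.49), Nfkbiz (1.22), Nfkbie (1.15) and Nfkbia (1.02), and Tnfaip3, the ubiquitin editing inhibitor A20, was at 0.79. Nfkbia stood at 219, 228 and 214 CPM without CIT and 450.2, 439.9 and 447 CPM with it. Subunits rose less, with Nfkb1 at 0.64, Relb at 0.40 and Nfkb2 at 0.36, and Rela did not pass the test (0.02, adjusted p = 0.826).

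Other signalling brakes split. Of the DUSP and SPRY list, inhibitors of MAP kinase signalling, 4 of 15 rose (2 without stimulated library 1 or 3) and 7 fell, with Dusp4 going from 2.43, 4.78 and 4.22 to 49.7, 45.4 and 46.0 CPM (3.63 ± 0.16) and Dusp3 at -1.36. Of 9 RGS genes, which damp G protein signalling, 5 rose and 2 fell. Rgs13, a germinal centre B cell gene, stood at 333, 314 and 331 CPM without CIT and 88.2, 103 and 92.0 CPM with it (-1.79 ± 0.05), and Rgs16 was near 0 without CIT and at 6.46, 6.60 and 5.397 CPM with it. Of 21 immediate early genes 11 rose, Fosb (2.44), Ier3 (1.62) and Junb (1.38) among them, and 4 fell, Atf3 (-2.19; the call ended without unstimulated sgNop16 library 2, unstimulated sgNop16 library 3 or stimulated sgNop16 library 2 or with the 6 sgNop16 libraries alone, with an adjusted p of up to 0.0965), Myc, Nr4a1 (-0.62) and Klf6 (-0.47).

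Transcription factors of the B lineage changed in both directions, 12 of 28 higher and 11 lower, with a median of 0.00. Nfil3, which IL-4 induces in B cells, stood at 22.5, 21.8 and 24.0 CPM without CIT and 92.9, 94.2 and 91.3 CPM with it (2.03 ± 0.07). Ikzf3 (1.44), Bhlhe40 (1.22), Bach2 (1.06) and Irf4 (0.79) also rose. Prdm1, the plasma cell regulator Blimp-1 that Bach2 represses, was low and fell further: 4.61, 6.02 and 6.43 CPM without CIT and 1.76, 1.48 and 1.597 CPM with it (-1.82 ± 0.23). Batf3 (-1.19), Mef2c (-0.86) and Ets1 (-0.79) fell, and Pax5 did not pass the test (-0.01, adjusted p = 0.9). Plasma cell genes went both ways, 7 of 15 higher and 6 lower.

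Among genes that reached 5 CPM, the largest rises included genes of several kinds. Adamtsl2, a secreted matrix protein gene, was at 0 in 2 unstimulated libraries and at 44.3, 41.5 and 39.4 CPM with CIT, at least 457-fold higher. Lrig1, a brake on receptor tyrosine kinases, was at least 254-fold higher, Vcam1, an adhesion molecule gene, at least 120.4-fold, Inava 149.9-fold and Spsb1, an adaptor of a ubiquitin ligase that acts on the TGF-β receptor, 91.4-fold. By change per kb of exon, the gains in RNA were led by Cd74, Ccl22 and Ifi30 and the losses by Cd24a and Marcksl1. Ccl22, a chemokine, stood at 1169, 1188 and 1149 CPM without CIT and 3804, 4082 and 3968 CPM with it (1.76 ± 0.02). Cd24a, a surface glycoprotein of immature B cells, stood at 1357, 1324 and 1389 CPM without CIT and 335, 341 and 343 CPM with it (-2.0 ± 0.02).

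Of 21 genes of secreted messengers, chemokines and cytokines, 10 were lower and 7 higher, 4 of the higher ones with a filter of 5 CPM. Il10 stood at 84.8, 83.3 and 83.7 CPM without CIT and 5.69, 5.23 and 6.73 CPM with it (-3.84 ± 0.09). Ccl3 (-3.05), Ccl4 (-2.61), Tnfsf9 (-1.74), Ltb (-1.38) and Tnf (-1.18) fell as well. Ccl5 (2.25) and Ccl17 (1.72) rose from low levels. Receptors went the other way, with 16 of 22 cytokine receptor genes higher and 1, Il10rb, lower (-0.60). Vdr, the vitamin D receptor, which was placed in this list, stood at 0.365, 0.215 and 0.422 CPM without CIT and 23.9, 19.8 and 21.4 CPM with it (6.0 ± 0.37). Ifngr2 was at 1.95, Csf2rb at 1.22 and Tnfrsf13c, the receptor for BAFF, at 1.04. Homing receptors had 11 rises and 5 falls of 21: Cxcr5, which guides B cells to follicles, was at 1.03, Gpr183 at 1.67 and Cxcr4 at 0.99, against S1pr2 at -1.63 and Itgb1 at 475, 471 and 480.5 CPM without CIT and 212, 216 and 211 CPM with it (-1.16 ± 0.03).

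Surface molecules of the antigen receptor complex were reordered. Of 19 genes of the B cell receptor and its co-receptors 9 rose and 8 fell. Cd22, an inhibitory co-receptor, stood at 115, 117 and 113 CPM without CIT and 3.32, 3.31 and 3.61 CPM with it (-5.07 ± 0.24, adjusted p = 1.71e-07). All stimulated libraries were under 4 CPM and all unstimulated ones far above. Fcrl1 (-2.05), Cd37 (-1.13), Cd81 (-0.79) and Ms4a1, which encodes CD20 (-0.66), fell too, while Cd5 (0.98), Siglecg (0.72) and Fcgr2b (0.66) rose. Cd79a was at 0.20 and Cd79b at -0.09 (the call ended without stimulated sgNop16 library 3, with an adjusted p of up to 0.101). Downstream, 12 of 29 signalling genes rose and 12 fell. Bank1, an adaptor, stood at 29.6, 27.5 and 30.2 CPM without CIT and 3.27, 4.77 and 3.95 CPM with it (-2.86 ± 0.13), and the kinases Syk (-0.74), Blk (-0.77) and Lyn (-0.52) fell, while the ubiquitin ligase gene Cblb (1.16) and Ptpn22 (1.12) rose. Costimulatory and adhesion genes had 15 rises and 10 falls of 28, with Icosl (2.22), Fas (2.12) and Cd69 (1.34) higher and Cd200 (-1.57) lower.

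Most genes of antigen presentation rose. Of 20 MHC class II genes 15 were higher and 3 lower, with a median of 1.26. Ciita, the class II transactivator, stood at 114, 111 and 105 CPM without CIT and 601, 582 and 587 CPM with it (2.42 ± 0.03). H2-Aa stood at 481, 492 and 487 CPM without CIT and 1273, 1289 and 1279.6 CPM with it (1.40 ± 0.02). H2-Eb1 stood at 355, 354 and 357 CPM without CIT and 940.4, 919.5 and 953 CPM with it (1.40 ± 0.03). Both encode chains of the classical class II molecules, whose printed promoters hold CCAAT words. H2-DMb2, of the peptide editor H2-DM, was at 1.69 ± 0.04, and H2-Ob, of its inhibitor H2-DO, at 2.67 ± 0.05. Cd74, the invariant chain, stood at 2552, 2579.7 and 2579.9 CPM without CIT and 4908, 4874 and 4847 CPM with it (0.92 ± 0.02). Ifi30, a lysosomal thiol reductase, was at 1.64. The falls were in Lgmn, a lysosomal protease (115, 114 and 125 CPM without CIT and 36.0, 42.3 and 39.8 CPM with it, -1.58 ± 0.05), and in 2 genes of the RFX complex, Rfx5 (-0.17) and Rfxap (-0.11). Both of these calls ended without unstimulated library 2 (adjusted p = 0.0593 and 0.0736), and that of Rfxap also without unstimulated library 1 or stimulated library 2 or 3 (adjusted p up to 0.139), with library totals (0.0656), with no filter on low counts (0.0545), with the 5 CPM filter (0.0621) and with only the 6 sgNop16 libraries (0.0601). Of the NF-Y genes Nfya was at 0.12 (the call ended without unstimulated sgNop16 library 1 or stimulated sgNop16 library 3, with an adjusted p of up to 0.149), and Nfyb (-0.09, adjusted p = 0.315) and Nfyc (0.01, adjusted p = 0.959) did not pass the test. MHC class I genes moved less, 16 of 22 higher and 2 lower with a median of 0.45: Tap1, a peptide transporter, was at 1.15, H2-K1 at 0.45 and B2m at 0.39, while the proteasome activators Psme1 (-0.71) and Psme2 (-0.42) fell. Interferon-stimulated genes had 5 rises and 6 falls of 26 and a median of 0.01.

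**Figure D3:**
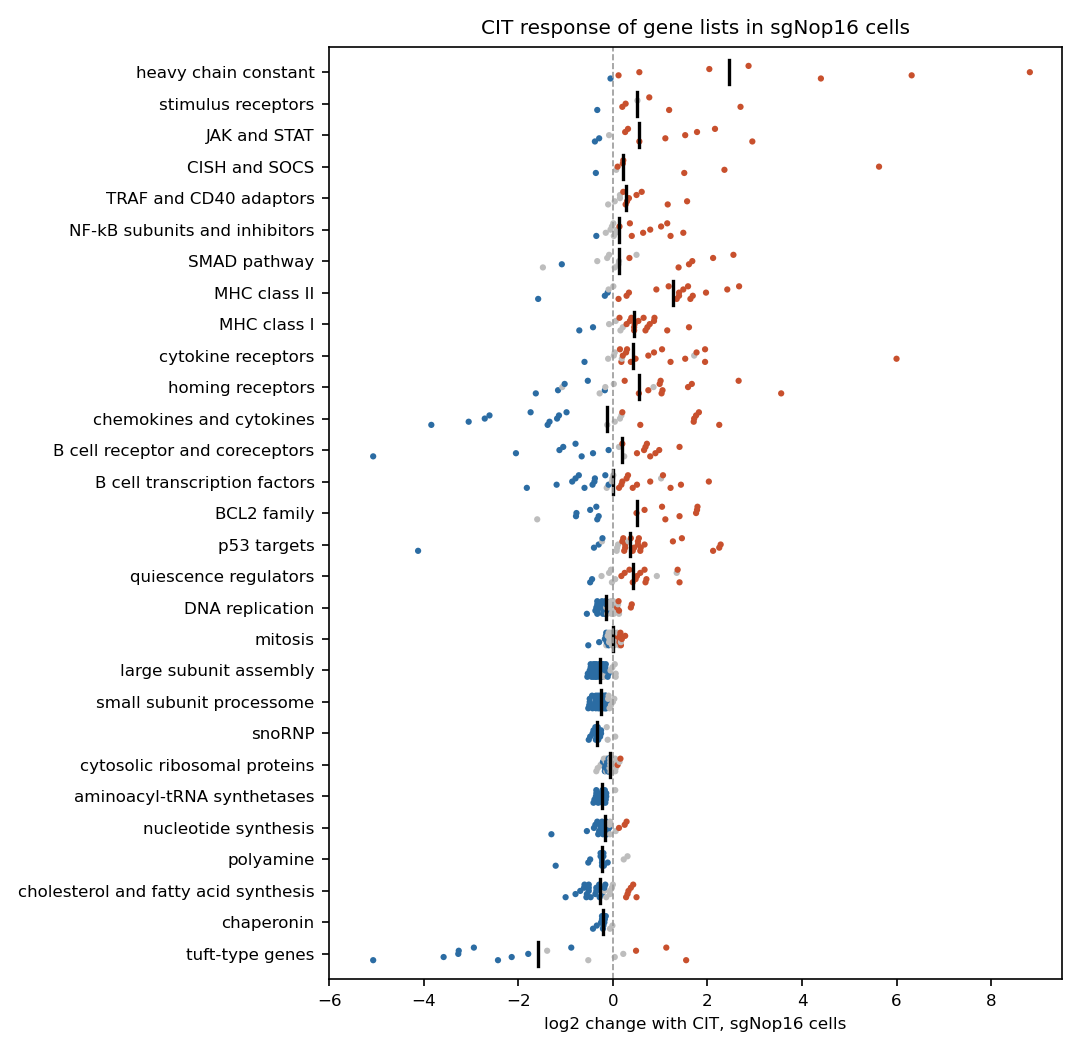
Log2 change with CIT in sgNop16 cells (x axis) of each tested member of 29 gene lists (rows), red where called higher, blue where called lower and grey where not called, with black bars at the list medians and a dashed line at the median of all genes, 0.01. MHC class II genes sit to the right with a median of 1.26, and the 3 lists of ribosome assembly lie just left of 0, with medians between -0.33 and -0.25.

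Survival genes of the BCL2 family changed on both sides. Of 15 tested genes 8 rose and 6 fell. Among protectors, Bcl2l1 stood at 41.1, 37.6 and 37.7 CPM without CIT and 104, 102 and 104 CPM with it (1.41 ± 0.06) and Bcl2a1d was at 1.78, one of several near-identical copies between which reads may be divided. Mcl1 fell: 548, 538 and 535 CPM without CIT and 316, 310.5 and 318 CPM with it (-0.78 ± 0.03). Among promoters of cell death Bmf (1.79) and Bcl2l11, which encodes BIM (1.11), rose and Bid (-0.77), Bak1 (-0.48) and Bax (-0.30) fell. Of 28 tested genes of the p53 target list, which also held Trp53 and Mdm4, 19 rose and 4 fell. With 1 sgNop16 library left out 15 to 18 rose. Plk2 moved furthest: 36.3, 34.9 and 34.4 CPM without CIT and 1.86, 2.47 and 1.67 CPM with it (-4.12 ± 0.17). Phlda3 was at 2.28 and Cdkn1a, the CDK inhibitor p21, at 12.6, 12.5 and 14.9 CPM without CIT and 20.0, 20.0 and 17.8 CPM with it (0.53 ± 0.12).

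Of 34 mitosis genes 8 rose and 8 fell, between -0.52 and 0.26, with a median of 0.00, and 5 rose without unstimulated library 1 or 2 or stimulated library 2 or 3. Of 39 DNA replication genes 20 fell and 5 rose (2 without unstimulated library 1 or 3, 3 without stimulated library 1 or 2), between -0.55 and 0.40, with Cdt1, a licensing factor, at -0.55 and Mcm2 at -0.35. Among G1 regulators 7 of 21 rose and 7 fell, with Ccnd2, a D cyclin gene, at 42.3, 45.9 and 43.1 CPM without CIT and 138, 137 and 135 CPM with it (1.64 ± 0.05) and Ccne1 at -0.86. Genes linked to quiescence had 12 rises and 2 falls of 21, led by Pik3ip1 (1.41) and Btg1 (93.9, 86.3 and 89.2 CPM without CIT and 229.8, 226 and 239.7 CPM with it, 1.37 ± 0.04).

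Most genes of the ribosome assembly lists fell, by small steps. The MYC and MAX network itself was mixed, with 4 of 12 tested genes higher and 5 lower (median -0.07). Myc stood at 463, 467 and 458 CPM without CIT and 239, 251 and 244 CPM with it (-0.92 ± 0.03, adjusted p = 3.23e-17). Mycl rose from 0.558, 0.550 and 1.22 to 10.8, 10.04 and 9.73 CPM (3.71 ± 0.27), and Mxd4, of the MAX partners that oppose MYC, was at 1.26. Of 52 genes of large subunit assembly, NOP16's own group, 45 fell and none rose, with a median of -0.28. Of 49 processome genes 42 fell and none rose (-0.25), and of 17 genes of box C/D and H/ACA particles and their assembly 14 fell and none rose (-0.33). The single falls were slight but clear of library spread: Nop2 stood at 238, 245 and 234 CPM without CIT and 169, 163 and 161 CPM with it (-0.54 ± 0.04). Wdr43, whose printed promoter holds CACGTG, stood at 307, 322 and 316 CPM without CIT and 219, 227 and 227 CPM with it (-0.49 ± 0.03). Npm1, an abundant nucleolar chaperone, stood at 3103, 2941 and 3204 CPM without CIT and 2499, 2576 and 2545 CPM with it (-0.28 ± 0.02). Of 18 RNA polymerase I genes 10 fell and 2 rose, Znrd1 (0.51) and Ubtf (0.12), with Ddx21 at -0.61 and Nolc1 at -0.58. The ribosomal proteins themselves moved less, 28 of 80 lower and 2 higher with a median of -0.06. The falls numbered 16 without stimulated library 2 and 18 with library totals in place of TMM factors, and the rises were Rps20 (0.10) and Rps27l (0.16).

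In the lists of large subunit assembly, the processome and box C/D and H/ACA particles no gene was higher at an unadjusted p under 0.05 by edgeR or called higher by DESeq2, and the same held for the synthetase, polyamine and chaperonin genes below and for falls among the TRAF genes above.

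Most genes of several supply routes of growth fell. Of 20 aminoacyl-tRNA synthetase genes 19 fell and none rose (median -0.22), led by Tars (-0.41) and Nars (-0.39). Of 14 polyamine genes 12 fell and none rose. Odc1, the rate-limiting enzyme of the pathway, stood at 1100.3, 1102 and 1085 CPM without CIT and 462, 483 and 479.6 CPM with it (-1.21 ± 0.03). Of 25 nucleotide synthesis genes 18 fell and 3 rose, with Impdh1, of guanine nucleotide synthesis, at 22.6, 25.03 and 23.2 CPM without CIT and 9.93, 9.28 and 9.61 CPM with it (-1.30 ± 0.11). Of 14 genes of serine and one-carbon metabolism 11 fell and 1, Ahcy, rose (0.20), with Psph at -0.64. Amino acid transporters had 5 falls and 4 rises of 14 (2 rises without unstimulated or stimulated library 3), Slc7a1 (-0.72) and Slc1a5 (-0.66) falling and Slc43a2 (0.98) rising. Of 12 chaperonin and mitochondrial chaperone genes 10 fell and none rose, with Hspd1 at -0.42. Of 31 proteasome genes 16 fell and 1, Psma6, rose (0.42).

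Lipid and sugar enzymes also went down in part. Of 31 genes of cholesterol and fatty acid synthesis 19 fell and 6 rose (median -0.28). Scd1, a fatty acid desaturase, stood at 561, 560.0 and 564 CPM without CIT and 281, 294 and 266 CPM with it (-1.0 ± 0.03), while its relative Scd2 rose (0.33). Fads1, another desaturase gene, was at 0.50. Of 27 glycolysis and hypoxia genes 11 fell and 6 rose, with Pdk1 at -0.61, Ldha at -0.33, Hk2 at 0.49 and Slc16a3, a lactate exporter gene, at 1.07. Genes of folding and degradation in the endoplasmic reticulum had 13 rises and 7 falls of 29, Ern1, the stress sensor IRE1, at 0.66 and Sel1l at -0.76. Of 13 mitochondrially encoded genes 3 fell and none rose, while 2 rose without stimulated library 1.

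A group of genes known from tuft cells, chemosensory cells of epithelia, was expressed in the unstimulated line and fell. Of 16 tested genes 9 were lower and 3 higher, with a median of -1.59, and a filter of 5 CPM left 5 of the lower ones. Pou2f3, their lineage factor, stood at 52.6, 52.7 and 54.8 CPM without CIT and 1.66, 1.95 and 1.09 CPM with it (-5.07 ± 0.15). Gnat3, a taste G protein subunit, stood at 43.2, 39.3 and 47.0 CPM without CIT and 2.91, 4.05 and 3.78 CPM with it (-3.58 ± 0.12). Ehf (-3.27) and Sh2d7 (-2.43) fell too, while Ptgs1 (1.55), Alox5ap (1.13) and Hpgds (0.49), of prostaglandin and leukotriene synthesis, rose. The epithelial markers Cdh1, Krt8 and Krt19 were at 0 in both groups. The list was drawn up with Pou2f3 and Gnat3 already known to fall in these libraries, so it is no independent evidence of its direction.

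The response was then set against that of sgCtr cells, by a test of the difference between the responses (the interaction). It called 475 genes, 2.83% of those tested, 207 (1.23%) with a higher and 268 (1.6%) with a lower log2 change in sgNop16 cells, and with library totals in place of TMM factors 138 and 327. Of 354 genes called in both responses and in the interaction, 332 moved the same way with both guides, by less in sgNop16 cells for 244 and by more for 88, and 22 moved in opposite directions. Another 48 were called in sgNop16 cells only and 73 in sgCtr cells only. Leaving out single libraries brought the 475 down to as few as 305, without unstimulated sgNop16 library 1, and to 306 without stimulated sgNop16 library 2. The levels before CIT often differed between the guides as well, so the means of the 4 groups are given for each gene below.

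**Figure D4:**
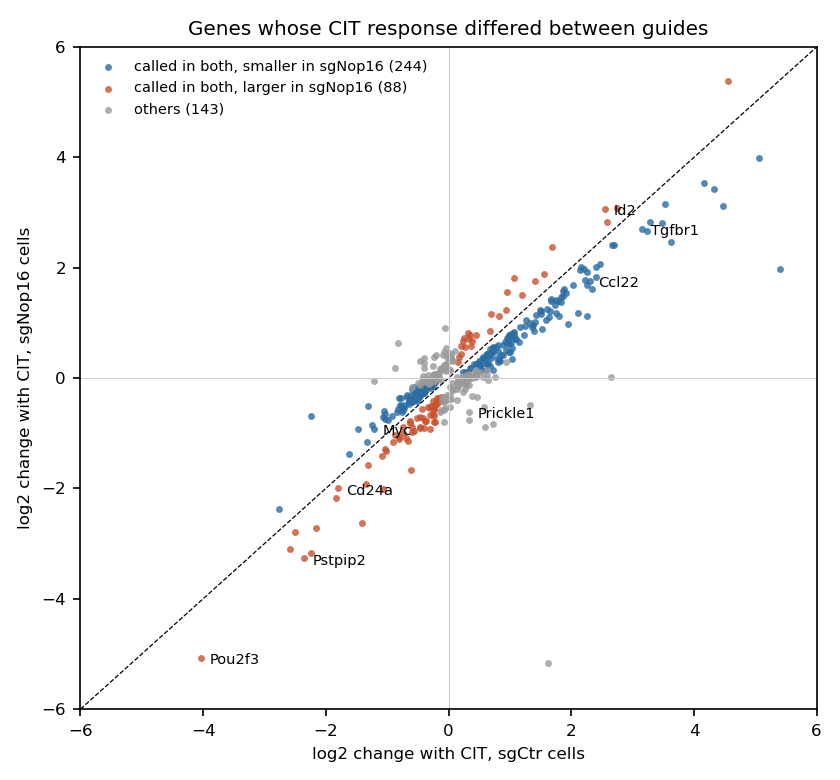
Log2 change with CIT in sgCtr cells (x axis) and sgNop16 cells (y axis) for 469 of the 475 genes whose response differed between the guides; the other 6 lie outside the axes. Of the genes called in both responses in the same direction, 244 (blue) moved less and 88 (red) more in sgNop16 cells, and the dashed line marks equal responses.

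MHC class II genes were the list with the most such differences for its size, 10 of 20 (8 to 10 with 1 library left out), and 9 of the 10 rose less in sgNop16 cells. H2-Eb1 went from 355 ± 1.53 to 937 ± 16.7 CPM (SD, n = 3) in sgNop16 cells and from 267 ± 8.35 to 924 ± 29.1 CPM in sgCtr cells, a difference of responses of -0.39 ± 0.04 (adjusted p = 1.99e-06). The guides thus stood apart before CIT and close together after it. Ciita went from 110.2 ± 4.50 to 590.1 ± 10.04 and from 96.3 ± 1.89 to 620.4 ± 14.6 CPM (-0.27 ± 0.04). Cd74 went from 2570.4 ± 16.3 to 4876 ± 30.6 and from 2210.1 ± 38.9 to 4935 ± 146 CPM (-0.23 ± 0.03). H2-Ob differed after CIT instead, 15.04 ± 0.815 to 96.0 ± 3.93 against 14.5 ± 0.459 to 137 ± 2.82 CPM (-0.56 ± 0.07). Lgmn was the exception, falling further in sgNop16 cells, 118 ± 6.22 to 39.4 ± 3.18 against 137 ± 2.15 to 55.1 ± 0.941 CPM (-0.27 ± 0.07, adjusted p = 0.046), a call that ended without any 1 library but unstimulated sgNop16 library 2 or stimulated sgNop16 library 2 (adjusted p up to 0.113), with the replicate number as a block (0.0557) and with no filter on low counts (0.0522).

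Among regulators, Tgfbr1 reached 384 ± 5.58 CPM from 58.9 ± 1.91 in sgNop16 cells and 517 ± 15.3 from 57.6 ± 2.62 in sgCtr cells (-0.46 ± 0.05, adjusted p = 6.69e-06). Unstimulated libraries of the guides overlapped and stimulated ones did not. Rel, the NF-κB subunit c-Rel, rose from 205 ± 8.02 to 226 ± 3.08 against 193 ± 5.64 to 293 ± 2.93 CPM (-0.46 ± 0.05). Irf8 rose from 176 ± 7.74 to 219 ± 6.74 against 153 ± 4.44 to 273 ± 15.1 CPM (-0.52 ± 0.06), and Bhlhe40 from 148 ± 0.581 to 345 ± 8.85 against 112 ± 5.23 to 352 ± 17.2 CPM (-0.43 ± 0.05). Id2 rose by more in sgNop16 cells, 4.68 ± 0.105 to 38.9 ± 1.48 against 6.27 ± 0.291 to 36.7 ± 1.43 CPM (0.51 ± 0.12; the call ended without unstimulated sgCtr library 3, stimulated sgCtr library 1, stimulated sgCtr library 3, unstimulated sgNop16 library 1 or stimulated sgNop16 library 2 or with counts divided by 4, with an adjusted p of up to 0.0649) and Id3 by less, 43.7 ± 0.400 to 51.1 ± 2.64 against 43.8 ± 1.05 to 69.7 ± 4.62 CPM (-0.45 ± 0.08). The heavy chain constant genes were not called for a difference, and neither were the JAK and STAT or SMAD pathway lists in any member. At an unadjusted p under 0.05 edgeR gave 1 heavy chain gene, 0 of the JAK and STAT list and 4 of the SMAD pathway, and DESeq2 called 1, 0 and 0. By edgeR 1 heavy chain gene was called with counts divided by 4. The same number was called without unstimulated sgCtr library 3, stimulated sgCtr library 2, unstimulated sgNop16 library 1 or stimulated sgNop16 library 1.

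The 10 genes with the smallest p in this test had a lower log2 change in sgNop16 than in sgCtr cells in every case. Ccl22, whose p was smallest, went from 1169 ± 19.2 to 3951 ± 139 in sgNop16 and from 577 ± 17.4 to 2872 ± 34.8 CPM in sgCtr cells (-0.56 ± 0.03, adjusted p = 2.09e-09). Prickle1, of planar cell polarity, moved in opposite directions, 192 ± 5.48 to 125 ± 4.54 against 115 ± 4.90 to 144 ± 7.34 CPM (-0.95 ± 0.06). Mpeg1, a pore-forming protein gene, did so too, 252 ± 1.86 to 210.5 ± 1.91 against 226 ± 3.57 to 266 ± 10.3 CPM (-0.50 ± 0.04). The other four named here rose less in sgNop16 cells. Cybb, an NADPH oxidase subunit gene, went from 368 ± 8.81 to 404 ± 3.64 against 317 ± 8.61 to 520.2 ± 5.89 CPM (-0.58 ± 0.04). Apoe, a lipoprotein gene, went from 171 ± 4.98 to 315 ± 10.6 against 151 ± 4.04 to 435 ± 14.0 CPM (-0.64 ± 0.05). Grn, the granulin precursor, went from 170.2 ± 4.70 to 237 ± 7.93 against 145 ± 6.82 to 290.0 ± 7.47 CPM (-0.52 ± 0.05), and Adssl1, of adenine nucleotide synthesis, from 103 ± 3.84 to 185 ± 4.45 against 106 ± 2.88 to 279.5 ± 6.81 CPM (-0.55 ± 0.05). Pstpip2 fell further, 152 ± 5.44 to 15.8 ± 0.957 against 177 ± 4.69 to 34.7 ± 1.92 CPM (-0.92 ± 0.07). H2-Eb1 and Rel, given above, are the other two. Pou2f3 also fell further in sgNop16 cells, 53.4 ± 1.23 to 1.57 ± 0.440 against 75.2 ± 2.72 to 4.61 ± 0.942 CPM (-1.04 ± 0.20, adjusted p = 0.00726).

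Myc fell less with the Nop16 guide, as did called members of the growth lists. Myc went from 463 ± 4.24 to 245 ± 5.95 CPM in sgNop16 cells and from 455 ± 6.49 to 197 ± 7.43 CPM in sgCtr cells (0.29 ± 0.04, adjusted p = 0.000286). Of the genes called in both responses and in the interaction, falls were smaller for all 8 in large subunit assembly, all 7 synthetases, all 5 of serine and one-carbon metabolism, all 4 of the polyamine list and all 4 of the chaperonin list. The list medians were -0.28 against -0.39, -0.22 against -0.40, -0.29 against -0.43, -0.23 against -0.37 and -0.20 against -0.33 in sgNop16 and sgCtr cells. Shmt2, of one-carbon metabolism, went from 475 ± 13.1 to 384 ± 3.54 against 518 ± 8.53 to 358 ± 11.7 CPM (0.22 ± 0.04), and Srm, the spermidine synthase gene, from 238 ± 5.15 to 170.0 ± 1.35 against 243 ± 4.55 to 147 ± 2.28 CPM (0.24 ± 0.04). Yars, a synthetase gene, went from 156 ± 1.87 to 135 ± 1.98 against 174 ± 4.35 to 125 ± 2.37 CPM (0.27 ± 0.05), and Rrp1b, of large subunit assembly, from 178 ± 0.905 to 161 ± 2.26 against 179.9 ± 4.09 to 139 ± 1.94 CPM (0.22 ± 0.04). Leaving out 1 library at a time took the members called in the interaction from 9 to between 1 and 5 in large subunit assembly, from 5 to between 0 and 4 in the chaperonin list, from 4 to between 2 and 4 in the polyamine list and from 7 to between 3 and 8 among synthetases. It was 1 in large subunit assembly with library totals in place of TMM factors. One-carbon metabolism had 4 or 5 with 1 library left out. DESeq2 called 8 in one-carbon metabolism, 8 in the chaperonin list and 12 in large subunit assembly. No processome gene was called by edgeR (8 at an unadjusted p under 0.05, 1 called without stimulated sgNop16 library 1 and 2 with DESeq2). Nop16 was not called either (0.08 ± 0.06, adjusted p = 0.658).

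**Figure D5:**
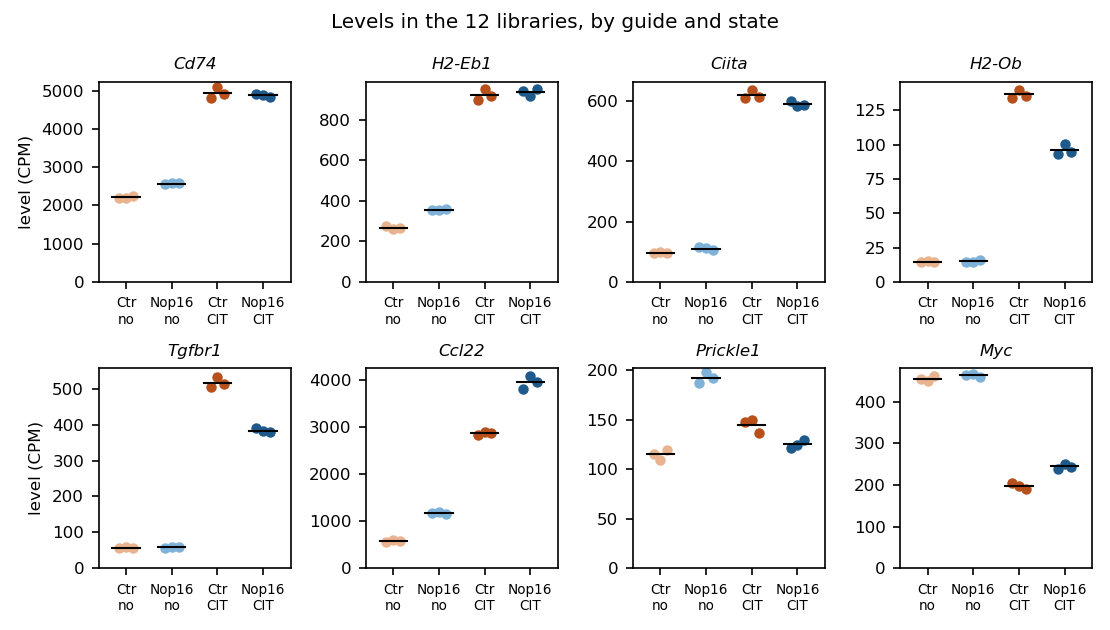
Levels in CPM (y axes, each from 0) of 8 genes in all 12 libraries, as points, with a bar at the mean of 3 libraries, for sgCtr and sgNop16 cells without and with CIT. H2-Eb1, Cd74 and Ciita were higher in sgNop16 cells before CIT, Tgfbr1 and H2-Ob were lower in them after it, and Prickle1 fell with CIT in sgNop16 cells and rose in sgCtr cells.

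In the GRCm38 annotation used for symbols, Bax, Cd74, Csf2rb, Iglc2, Il10rb, Il2rg, Lck, Map3k14, Rps20, Scd2, Smurf2 and Stat4 overlap exons of a neighbour on their own strand. Alox5ap, Apex2, Bach2, Bak1, Bcl3, Bhlhe40, Bid, Cbfa2t3, Ccnd2, Cd22, Cd37, Cd81, Cdkn1a, Ciita, Cish, Csf1r, Cxcr5, Dclre1c, Dusp3, Fcgr2b, Grn, Hspd1, Ifi30, Iglc3, Il4ra, Inava, Junb, Lrig1, Lyn, Mbd4, Msh6, Mxd4, Nfkb2, Pax5, Pik3ip1, Psme1, Psph, Pstpip2, Ptgs1, Rfx5, Rgs16, Rrp1b, Runx1, Runx2, Sh2d7, Shmt2, Slc43a2, Spsb1, Stat3, Stat5a, Stat6, Tap1, Tnfsf9, Trp53bp1, Tyk2, Vcam1, Wdr43 and Yars overlap exons of a gene on the opposite strand, and no source used here gives the strand setting of the counting.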

How the data were processed

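RNA was sequenced from 12 libraries of CH12F3-2A cells, 3 in each of 4 groups, from total RNA with a directional kit, per the labels' protocols. The submitters' processing notes list HISAT2 2.2.1, StringTie 2.2.1 and GRCm39 but not what each was used for; the sources used here give no counting settings. Deposited by the authors were estimated counts per Ensembl gene as whole numbers, unscaled, in 1 table. Low values pile up at 4, so 1 fragment may be worth about 4 counts, which no source states; that sets the floor of 12 counts, 3 such fragments. Symbols came from a GRCm38 annotation for 51948 genes, and the 4993 others held at most 0.365% of a library. Gene models shared a symbol in 131 cases.

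Genes passing filterByExpr entered 1 edgeR 4.0.16 model (R 4.3.3) of all 12 libraries with a mean per group and TMM factors (0.985 to 1.013; common dispersion 0.015), tested by the robust quasi-likelihood F test. Contrasts were the CIT response in sgNop16 cells and its difference from that in sgCtr cells; adjusted p is by Benjamini and Hochberg over all tested genes. The scripts were tested on simulated data. CPM use TMM-scaled library sizes, with SD over 3 libraries. Alternatives were RLE factors, library totals, other low-count filters (none; 5 CPM in 3 libraries), a replicate block, DESeq2 1.42.0, counts divided by 4, only the sgNop16 libraries, a 1.5-fold minimum (glmTreat), and each library left out in turn.

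The comparison, the 54 gene lists and the 7 marker sets were chosen with earlier results of these data known. Lists are described by counts and medians beside those of all genes. Named genes were Nop16, the heavy chain constant genes, the 6 largest rises and falls (at least 5 CPM in the higher group, no overlap of libraries, gene model names left out), the 8 largest each way by CPM per kb of exon, per list the 3 (or fewer) strongest called rises and falls and all called members against its main direction (or the 2 smallest p where none was called), and for the interaction the 10 called genes with the smallest p and called list members, of which the text prints some. Atm, B2m, Bach2, Ccl4, Cd69, Cd79a, Cdkn1a, Csf1r, Cxcr4, Cxcr5, Fcgr2b, H2-K1, Icosl, Il4ra, Junb, Lck, Ldha, Ltb, Lyn, Nfkb1, Nfkb2, Nfkbia, Nfya, Nfyb, Nfyc, Pax5, Rela, Relb, Sh2d7, Siglecg, Ski, Smad2, Smad4, Smurf1, Smurf2, Socs2, Stat3, Stat6, Syk, Tnf, Tnfaip3, Tnfrsf13c, Tnfsf9 and Trp53bp1 fall outside this rule and were chosen after their values were seen. Some genes are not reported here.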

Additional observations from a re-analysis of the deposited data

Results flagged for a closer look

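For the genes below the CIT response differed between the guides in the test of the difference itself, edgeR's quasi-likelihood interaction over all genes at an adjusted p under 0.05. Values are the log2 response in sgNop16 cells minus that in sgCtr cells. The difference was below 0 for Adssl1 (-0.55), Apoe (-0.64), Bhlhe40 (-0.43), Ccl22 (-0.56), Cd74 (-0.23), Ciita (-0.27), Cybb (-0.58), Grn (-0.52), H2-Eb1 (-0.39), H2-Ob (-0.56), Id3 (-0.45), Irf8 (-0.52), Lgmn (-0.27), Mpeg1 (-0.50), Pou2f3 (-1.04), Prickle1 (-0.95), Pstpip2 (-0.92), Rel (-0.46) and Tgfbr1 (-0.46). It was above 0 for Id2 (0.51), Myc (0.29), Rrp1b (0.22), Shmt2 (0.22), Srm (0.24) and Yars (0.27). Unstimulated levels also differed between the guides for several of these genes, as the group means in the report show, and the part this has in the differences was not tested. Groups of 3 libraries are too small for a test of single outlying libraries.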

How the results depend on the processing

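The count of genes called in the CIT response with the Nop16 guide was 6343 (3239 higher, 3104 lower) and lay between 5789 (5 CPM filter) and 6462 (DESeq2) under the scaling, filter, block, DESeq2, divided-count and 6-library alternatives. Leaving out 1 sgNop16 library at a time gave 5707 to 5804 in all, 2797 to 2897 higher and 2852 to 2996 lower. Requiring more than a 1.5-fold change with glmTreat asks a stricter question and left 1220 genes, 848 higher and 372 lower. The difference between the guides' responses was called for 475 genes, and for 767 with DESeq2, of which 366 were higher (207 with edgeR). Of genes called in the interaction and in both responses in the same direction, 244 had a smaller and 88 a larger change with the Nop16 guide. With DESeq2 these were 385 and 122. Leaving out 1 library at a time gave 305 to 389 genes in all, 100 to 171 higher, 180 to 258 lower, 153 to 198 smaller and 58 to 75 larger with the Nop16 guide. With library totals in place of TMM factors the split of higher against lower went from 207 and 268 to 138 and 327.

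Stimulated and unstimulated sgNop16 libraries with the same replicate number did not deviate together (r over 10295 genes 0.0159, -0.32 and -0.128 for numbers 1, 2 and 3). Those with different numbers gave r from -0.216 to 0.304. Deviations from a mean of 3 libraries offset each other by construction, so this check cannot settle whether the numbers pair the libraries. With the replicate number as a block the response was called for 6247 genes, 3163 higher and 3084 lower, and the interaction for 407, of which 173 were higher, 234 lower, 213 smaller and 72 larger.

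Of 3597 values of named genes under the alternatives, 3532 kept their direction and their side of the threshold, 53 no longer passed it, 1 newly passed it and 11 changed sign. Sign changes were in genes near 0 that were not called. Pax5 was at 0.00 with library totals and with the 5 CPM filter, and at 0.02 without 1 stimulated library. With 1 library left out Nfyc ranged from -0.05 to 0.05, Rela from -0.03 to 0.04, Socs2 from -0.00 to 0.10, Trp53bp1 from -0.03 to 0.05 and Pax5 from -0.05 to 0.02. The cause was not tested. Depth was 38866418 to 48615177 counts per library, and 3 libraries a group limit the calls of small changes. Nothing in the labels says that the libraries of a group came from separate cultures, so p-values measure the spread between these libraries only.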
